A study of Caenorhabditis elegans with 9 samples.

Results

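Propionyl-CoA, a product of the breakdown of valine, isoleucine, methionine, threonine and odd-chain fatty acids, is disposed of in *C. elegans* by either of 2 routes, and the 10 genes described here encode the enzymes of both. The propionate shunt is represented by *acdh-1*, *ech-6*, *hach-1*, *hphd-1* and *alh-8*, and the route that needs vitamin B12 by *pcca-1*, *pccb-1*, *mce-1*, *mmcm-1* and *mmaa-1*. The genes were taken by name as the known members of each route and matched to the deposited values by their WormBase identifiers. All 10 were present among the 14218 genes of the sheet analysed, and all 10 were among the 11287 genes tested.

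In the B12-dependent route, propionyl-CoA carboxylase adds a carboxyl group, an epimerase turns the product over, and methylmalonyl-CoA mutase, whose cofactor is made from vitamin B12, converts it to succinyl-CoA for the citric acid cycle. In the shunt, propionyl-CoA is oxidised through acrylyl-CoA, 3-hydroxypropionate and malonate semialdehyde to acetyl-CoA without B12. In *C. elegans* the shunt genes are known to be transcribed strongly, in the intestine among other tissues, when B12 is scarce and propionate accumulates, and *E. coli* OP50 is a diet poor in B12.

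Poly(A) RNA was sequenced from whole bodies of L4 larvae of 3 genotypes, with 3 independently prepared replicates each: wild type (WT, strain N2), the loss-of-function mutant *atf-4(tm4397)* (strain LD1325) and ATF-4OE (*ldIs119*), an overexpressor. ATF-4 is a transcription factor of the integrated stress response, and the comparison asks which transcripts follow its loss or its excess without applied stress. The transgene of ATF-4OE is driven by the upstream region of *atf-4* itself and encodes a GFP fusion of genomic ATF-4; it was integrated by ultraviolet irradiation together with the collagen marker *rol-6(su1006)*, and 1 such line was sequenced. All groups were fed OP50, were synchronised by an arrest as L1 larvae, and were kept at 20 °C; each library pooled about 20000 animals. An effect of the *rol-6* marker, or of the insertion itself, cannot be told apart from that of excess ATF-4.

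Before any result, the names of the libraries need a remark. The deposited RPKM values and the centred and scaled values come from the same 9 libraries, yet the names given to them in these 2 sheets match in genotype for only 3 libraries and differ for 6. The genotypes followed here are those printed in the sheet with centred and scaled scores; the authors' separate sheet of 39 strongly regulated genes gives 9 of 9 libraries these genotypes, although it exchanges replicates 2 and 3 of the mutant. Levels are given in ppm, each library's values being shifted to start at 0 and scaled to a sum of 1000000; within a library they are a constant multiple of RPKM and so are already per length. Under these names *atf-4* itself measured 168 to 215 ppm in WT, 3.69 to 9.31 ppm in the mutant and 4184 to 6845 ppm in ATF-4OE. The marker *rol-6* measured 572 to 962 ppm in WT and 3019 to 4448 ppm in ATF-4OE. Depth was estimated by taking the commonest low value of RPKM times exonic length in a library as 1 read. It was 23.9 to 35.2 M reads per library, which places about 777 reads (*mce-1*) to 114950 reads (*acdh-1*) behind the lowest and the highest value of a member. Sperm markers summed to 78.4 ppm in WT replicate 3 and 146 ppm in mutant replicate 2, against 0.662 to 14.3 ppm in the other 7 libraries, and germline markers reached 538 ppm in mutant replicate 2 against 141 to 345 ppm elsewhere.

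In WT the shunt was the more abundant route. By mean level its genes stood from 44th (*acdh-1*) to 339th (*hach-1*) of the 11287 genes, whereas *pccb-1*, the highest of the B12-dependent route, stood 890th and *mce-1*, the lowest, 2446th. The 5 shunt genes did not overlap in level with the 5 genes of the B12-dependent route in any WT or mutant library, as the plot of levels by library shows.

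**Figure D1:**
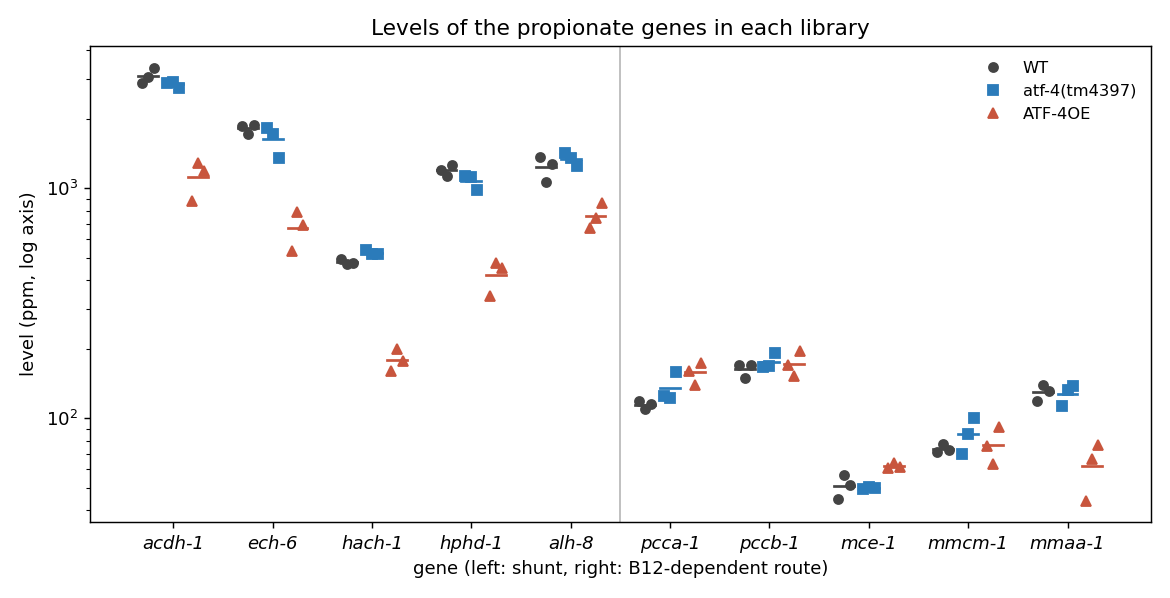
Level (ppm, log axis) of the 10 propionate genes in each of the 9 libraries; symbols are single libraries and short lines the mean of the 3 libraries of a genotype. In ATF-4OE all 5 shunt genes and *mmaa-1* lie below every WT library, for example *acdh-1* at 882 to 1290 ppm against 2875 to 3354 ppm.

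In ATF-4OE all 5 shunt genes fell relative to WT, 4 of them to between 35.1 and 37.6% of the WT mean. A gene passed the test here at an adjusted p under 0.1 (limma on log2(level + 1), Benjamini-Hochberg over all 11287 genes). By this rule 14.4% of all genes tested were lower in ATF-4OE and 22.1% were higher, and 2.96% were both lower and more than 1 log2 unit down, a limit that *acdh-1*, *ech-6*, *hach-1* and *hphd-1* also passed. In all 5 shunt genes every ATF-4OE library lay below every WT library, which was so for 23.0% of all genes tested. The median log2 fold change of the 5 genes was −1.46, against 0.01 over all genes. The authors' sheet of strongly regulated genes, chosen on these same samples, contains *acdh-1*, *ech-6*, *hphd-1* and *alh-8*, so that their direction is not independent evidence.

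*acdh-1* encodes the acyl-CoA dehydrogenase that opens the shunt by oxidising propionyl-CoA, and its promoter is widely used as a sensor of B12. It lies on chromosome I, from 6497436 to 6499560 on the plus strand (WBcel235), in 5 exonic blocks that overlap no other coding gene; the coordinates of the other members are given in the same build. The WT libraries measured 2875, 3064 and 3354 ppm, the mutant 2865, 2897 and 2738 ppm, and ATF-4OE 882, 1290 and 1189 ppm. The 3 ATF-4OE libraries thus stood well apart at the low end, and WT and mutant overlapped. The mean fell from 3098 ± 241 to 1120 ± 213 ppm (SD, n = 3 each), a log2 fold change of −1.48 (SE 0.13, limma adjusted p = 0.000309).

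*ech-6* (chromosome III, 9751552 to 9752883, minus strand, 4 exonic blocks) encodes the enoyl-CoA hydratase of the next step, which adds water to acrylyl-CoA and also serves valine breakdown. Its levels were 1864, 1731 and 1894 ppm in WT, 1838, 1732 and 1359 ppm in the mutant, and 536, 788 and 695 ppm in ATF-4OE. Mutant replicate 3 was the lowest library outside ATF-4OE, yet still above all of those. The log2 fold change between ATF-4OE and WT was −1.46 (SE 0.16, limma adjusted p = 0.000628).

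*hach-1* (chromosome III, 5555450 to 5557318, plus strand, 5 exonic blocks) encodes the hydrolase that releases 3-hydroxypropionate from its CoA ester. WT measured 494, 470 and 474 ppm, the mutant 538, 519 and 517 ppm, and ATF-4OE 161, 200 and 178 ppm. This was the tightest pattern of the shunt, with SDs of 12.9 ppm in WT and 19.6 ppm in ATF-4OE, and it gave the smallest adjusted p of the 10 genes, 6.7e-05 by limma, at a log2 fold change of −1.41 (SE 0.09).

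*hphd-1* (chromosome II, 12994354 to 12996571, minus strand, 9 exonic blocks) encodes the dehydrogenase that oxidises 3-hydroxypropionate to malonate semialdehyde. Its levels were 1208, 1134 and 1267 ppm in WT, 1133, 1122 and 983 ppm in the mutant, and 340, 474 and 452 ppm in ATF-4OE. Among the 10 genes it fell most in ATF-4OE, 2.85-fold on the means, and its log2 fold change of −1.52 (SE 0.13, limma adjusted p = 0.000228) was the 149th lowest of all genes tested.

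*alh-8* (chromosome II, 11729055 to 11731198, plus strand, 6 exonic blocks) encodes the aldehyde dehydrogenase that closes the shunt by converting malonate semialdehyde to acetyl-CoA, and it acts on the semialdehyde of valine breakdown too. It measured 1370, 1068 and 1275 ppm in WT, 1430, 1352 and 1256 ppm in the mutant, and 674, 742 and 868 ppm in ATF-4OE. The groups did not overlap, but the decrease was smaller than in the other 4 genes, with a log2 fold change of −0.70 (95% interval −0.98 to −0.42, limma adjusted p = 0.00435) where those of the others ended at −1.11 or lower. The difference between these changes was not itself tested. Of the exonic bases of *alh-8*, 34 are shared with *F13D12.8*, which lies on the opposite strand and rose in ATF-4OE (log2 fold change 0.72, limma adjusted p = 0.00496), and whether the counting used strand is not given in the sources used here.

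Markers of tissues moved in the same comparison, in which 14.4% of all genes tested were lower and 22.1% higher. Of 11 intestinal marker genes measured, 7 were lower in ATF-4OE than in WT and none was higher; their summed level was 5078 to 6304 ppm in WT, 3810 to 5054 ppm in the mutant and 2640 to 3540 ppm in ATF-4OE, and none was at 0 in any library. Of 10 neuronal markers 9 were higher in ATF-4OE (summed level 832 to 1006 ppm against 523 to 595 ppm in WT), as were 7 of 10 markers of body wall muscle (4564 to 6093 ppm against 3286 to 3819 ppm) and 3 of 6 epidermal markers. Of 11 sperm and 8 germline markers 0 passed against WT by limma, with 0 and 1 at an unadjusted p under 0.05. Over all genes tested, 39.7% were under that value in this comparison. In 7 of the 8 germline markers, however, every ATF-4OE library lay below every WT library, which was so for 23.0% of all genes. The germline markers summed to 211 to 245 ppm in WT and 141 to 151 ppm in ATF-4OE, without overlap. In bulk RNA of whole animals, fewer cells of a type and less RNA per cell cannot be told apart. In the mutant against WT, 0 of 11 intestinal markers passed by limma, and 5 lay wholly below WT, where 7.98% of all genes did. The shunt sum divided by the sum of the intestinal markers was 1.31 to 1.47 in WT, 1.53 to 1.80 in the mutant and 0.955 to 1.08 in ATF-4OE. On this scale it was also lower in every ATF-4OE library, and it was higher in every mutant library than in WT. That scale depends on the markers chosen, since *act-5* and *cpr-6* made up most of their sum (means 2833 and 1312 ppm in WT). Single intestinal markers changed from WT by −1.66 (*cpr-6*) to −0.23 (*eps-8*) on the log2 scale, and shunt genes by −1.52 to −0.70. The part of tissue proportions in the decrease of the shunt was not tested.

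The B12-dependent route did not move as a block in ATF-4OE. Relative to WT, *pcca-1* and *mce-1* rose, *mmaa-1* fell, and *pccb-1* and *mmcm-1* did not pass the test, and the median log2 fold change of the 5 genes was 0.08. By the same test 22.1% of all genes were higher and 14.4% lower, so that calls in either direction were common.

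*pcca-1* and *pccb-1* encode the alpha and beta subunits of propionyl-CoA carboxylase, the enzyme that commits propionyl-CoA to this route. Both lie on chromosome X, *pcca-1* from 7657542 to 7660986 on the minus strand and *pccb-1* from 3089549 to 3092437 on the plus strand. *pcca-1* measured 118, 110 and 116 ppm in WT, 125, 123 and 160 ppm in the mutant, and 161, 140 and 175 ppm in ATF-4OE. Mutant replicate 3 lay among the ATF-4OE values. The log2 fold change of *pcca-1* from WT to ATF-4OE was 0.46 (SE 0.13, limma adjusted p = 0.0263), where 22.1% of all genes were called higher. For *pccb-1* the values were 170, 149 and 170 ppm in WT, 168, 169 and 193 ppm in the mutant, and 171, 152 and 196 ppm in ATF-4OE. These groups overlapped throughout, and the 95% interval of the log2 fold change from WT to ATF-4OE ran from −0.19 to 0.35 (limma adjusted p = 0.645). Exonic bases of *pccb-1* and of *wrt-2*, a gene on the opposite strand, coincide over 43 bases.

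*mce-1* (chromosome I, 7582106 to 7583333, plus strand, 3 exonic blocks) encodes methylmalonyl-CoA epimerase, which interconverts the mirror forms of methylmalonyl-CoA. Its levels were 44.7, 56.5 and 51.2 ppm in WT, 49.3, 50.4 and 49.7 ppm in the mutant, and 60.6, 64.02 and 61.7 ppm in ATF-4OE. WT replicate 2 came close to the lowest ATF-4OE library. The log2 fold change from WT was 0.29 (SE 0.10, limma adjusted p = 0.0626). The adjusted p was 0.205 without WT replicate 1, 0.144 without WT replicate 3, 0.131, 0.125 and 0.128 without ATF-4OE replicate 1, 2 and 3, and 0.12 with scaling by the median of ratios, so that the call did not hold there.

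*mmcm-1* (chromosome III, 3903185 to 3907687, minus strand, 6 exonic blocks) encodes methylmalonyl-CoA mutase, the step at which B12 is used. It measured 71.5, 77.3 and 72.9 ppm in WT, 70.2, 85.5 and 100.7 ppm in the mutant, and 75.7, 63.4 and 91.4 ppm in ATF-4OE. WT was narrow (SD 3.03 ppm) and lay within the wider ranges of the other genotypes (SD 15.2 and 14.03 ppm), and the 95% interval of the change from WT to ATF-4OE was −0.32 to 0.41 on the log2 scale (limma adjusted p = 0.871).

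*mmaa-1* (chromosome II, 7099583 to 7101165, minus strand, 3 exonic blocks) is the worm counterpart of human MMAA, a GTPase that in humans helps the mutase to receive and keep its cofactor. WT measured 119, 140 and 131 ppm, the mutant 113.5, 133 and 138 ppm, and ATF-4OE 43.9, 66.7 and 76.4 ppm. Within the B12-dependent route it was the gene whose ATF-4OE libraries all lay below WT, and its log2 fold change was −1.08 (SE 0.19, limma adjusted p = 0.00415), between those of *alh-8* and *hach-1*.

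**Figure D2:**
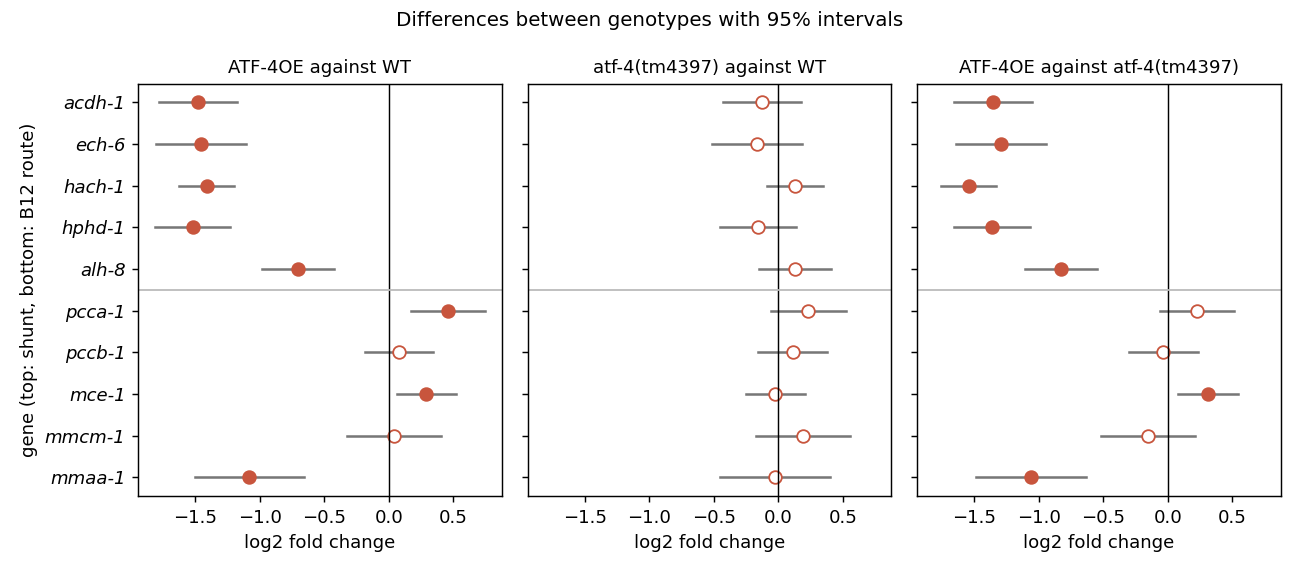
Log2 fold change of each gene (points) with its 95% interval (lines) in the 3 comparisons of genotypes, n = 3 libraries each; filled points passed the test at an adjusted p under 0.1. The 5 shunt genes and *mmaa-1* lie to the left in both comparisons that involve ATF-4OE, and none of the 10 genes is filled in the comparison of the mutant with WT.

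Because levels are per length, the genes of a route can be summed. The 5 shunt genes together measured 7811, 7467 and 8263 ppm in WT, 7804, 7620 and 6853 ppm in the mutant, and 2593, 3494 and 3382 ppm in ATF-4OE. The 5 genes of the B12-dependent route together measured 524, 533 and 540 ppm in WT, 526, 561 and 640 ppm in the mutant, and 512, 486 and 600 ppm in ATF-4OE. Only the shunt sum separated ATF-4OE from the other genotypes, and the sums of the B12-dependent route overlapped, since its rising and falling members offset each other. The ratio of the shunt sum to the other was 14.7 ± 0.658 in WT, 13.04 ± 2.12 in the mutant and 5.96 ± 1.10 in ATF-4OE (SD, n = 3 each). The share of *acdh-1* in the shunt sum was 39.5 ± 2.32% in WT, 38.2 ± 1.63% in the mutant and 35.4 ± 1.47% in ATF-4OE, and the ratio without *acdh-1* was 8.92 ± 0.597, 8.08 ± 1.51 and 3.84 ± 0.616. Relative to the intestinal markers, the B12-dependent route was at 0.0857 to 0.105 in WT, 0.104 to 0.168 in the mutant and 0.151 to 0.194 in ATF-4OE. This ratio was higher in ATF-4OE than in WT, with some overlap between ATF-4OE and the mutant. The sum of the route itself averaged 532 ppm in WT and 533 ppm in ATF-4OE, while the intestinal sum was 5078 to 6304 ppm and 2640 to 3540 ppm. These sums are descriptions and were not tested.

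**Figure D3:**
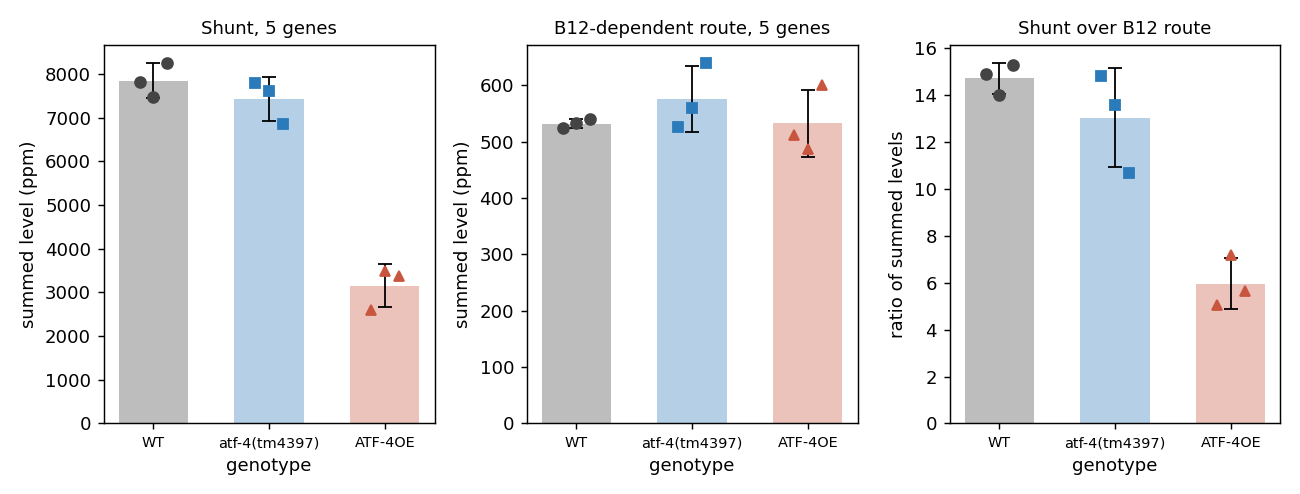
Summed level (ppm) of the 5 shunt genes, of the 5 genes of the B12-dependent route, and the ratio of these sums, by genotype; bars are means, error bars the SD of 3 libraries, symbols single libraries. The ratio is 5.06 to 7.18 in ATF-4OE and 10.7 to 15.3 in the other 6 libraries.

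Loss of *atf-4* gave no call among the 10 genes. In the comparison of *atf-4(tm4397)* with WT 0 of the 5 shunt genes and 0 of the 5 genes of the B12-dependent route passed by limma, and 0 of each had an unadjusted p under 0.05, a value that 1176 of all 11287 genes (10.4%) had. Over all genes, 0.0354% were higher and 0.0177% lower in the mutant, so that few calls of any kind were made in this comparison. The log2 fold changes of the members ran from −0.17 (*ech-6*) to 0.23 (*pcca-1*), and the smallest adjusted p was 0.511 (*pcca-1*, limma). All mutant libraries lay above WT for *hach-1* and *pcca-1* and below it for *hphd-1*, where 6.07% of all genes lay wholly above and 7.98% wholly below. The 95% interval was −0.43 to 0.17 for *acdh-1*, −0.08 to 0.34 for *hach-1* and −0.45 to 0.40 for *mmaa-1*, so that in *acdh-1* a decrease as large as in ATF-4OE lies outside it. Mutant replicate 3 had the highest *pcca-1*, *pccb-1*, *mmcm-1* and *mmaa-1* of its group and the lowest level of all 5 shunt genes. For *hach-1* the margin was small, 517 ppm against 519 ppm in mutant replicate 2. The ratio of routes in mutant replicate 3, 10.7, was below the 13.6 and 14.8 of the other mutant libraries. Its intestinal markers summed to 3810 ppm, against 4995 and 5054 ppm in those; whether this bears on the ratio was not tested.

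Against the mutant, ATF-4OE showed the shunt lower again, in 5 of 5 genes, where 13.8% of all genes were lower and 19.8% higher. This comparison shares the ATF-4OE libraries with the former and is no separate evidence. Markers moved here too: 6 of 11 intestinal and 7 of 8 germline markers were lower, and 10 of 10 neuronal and 6 of 10 muscle markers were higher. Of 11 sperm markers 0 passed by limma, and 0 had an unadjusted p under 0.05, where 37.9% of all genes tested did. Germline markers summed to 179 to 538 ppm in the mutant and 141 to 151 ppm in ATF-4OE. Their part in the shunt difference was not tested. The log2 fold changes were −1.54 (*hach-1*), −1.36 (*acdh-1*), −1.36 (*hphd-1*), −1.29 (*ech-6*) and −0.83 (*alh-8*), with adjusted p of 4.37e-05 to 0.00248 (limma). Of the B12-dependent route, *mmaa-1* was lower (−1.06, limma adjusted p = 0.00491) and *mce-1* higher (0.31, limma adjusted p = 0.0546), whereas *pcca-1* did not pass (0.22, limma adjusted p = 0.23). The call of *mce-1* did not hold without any of the 3 ATF-4OE libraries (adjusted p = 0.115, 0.117 and 0.115), without mutant replicate 2 (0.127) or in a fit to the scores themselves (0.133), and *pcca-1* passed without mutant replicate 3 (0.0623).

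The members of the shunt varied together across libraries. Over the 9 libraries, Pearson's r between shunt genes was 0.926 to 0.996 in the 10 pairs, and after the mean of each genotype was subtracted it was 0.39 to 0.95. Within the B12-dependent route r ranged from −0.72 to 0.76. *mmaa-1* correlated with the 5 shunt genes at 0.89 to 0.96, and at 0.29 to 0.78 once genotype means were removed. These values describe 9 libraries in 3 genotypes that share a scaling to a common sum, and most of the spread in the shunt lies between ATF-4OE and the rest.

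Among all genes tested, the 5 whose log2 levels followed *acdh-1* most closely over the 9 libraries were *pmp-5* (r = 0.998), *spp-4* (0.998), *ndub-10* (0.996), *T05C3.6* (0.992) and *pho-13* (0.992). *pmp-5*, an ABC transporter gene of the family whose human member ABCD4 takes part in lysosomal B12 export, measured 206, 237 and 250 ppm in WT and 50.5, 77.5 and 68.4 ppm in ATF-4OE. The same 3 libraries were low as for *acdh-1*, with replicate 1 of ATF-4OE the lowest in both. *ndub-10* was also lower in ATF-4OE, over a far narrower range, at 296 to 306 ppm in WT and 241 to 255 ppm in ATF-4OE. *pho-13*, *spp-4* and *T05C3.6* fell too, with log2 fold changes from WT of −2.31, −2.03 and −1.29. Closeness to *acdh-1* was thus not limited to genes of B12 handling. The genes closest to *mmcm-1* were *tlf-1* (r = 0.980), *swsn-1* (0.978), *ell-1* (0.973), *F53C11.5* (0.969) and *tln-1* (0.968). None of these 5 passed the test in ATF-4OE, where their log2 fold changes from WT were −0.01 to 0.06, and each was at its highest in mutant replicate 3, as *mmcm-1* was.

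Genes that handle cobalamin (vitamin B12) or use it elsewhere were largely lower in ATF-4OE. Of 7 tested, 5 fell, 1 rose and 1 did not pass, with a median log2 fold change of −0.53, where 14.4% of all genes were lower and 22.1% higher. *pmp-5* fell by 1.82 on the log2 scale (limma adjusted p = 0.000218). *metr-1*, the B12-dependent methionine synthase, measured 392, 415 and 432 ppm in WT and 175, 212 and 260 ppm in ATF-4OE, a log2 fold change of −0.95. Its reductase gene *mtrr-1* measured 304, 282 and 328 ppm in WT, 204, 258 and 209 ppm in the mutant and 71.7, 109 and 99.8 ppm in ATF-4OE, a log2 fold change from WT of −1.71 (limma adjusted p = 0.000407). The other enzyme known to depend on B12, the mutase *mmcm-1*, did not pass, as described above, whereas *mmaa-1*, which serves the mutase, fell. Whether *metr-1* and *mmcm-1* differ in their change was not tested.

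The remaining cobalamin genes changed less. *mrp-5*, a transporter that exports B12 from the worm intestine, fell by 0.53 on the log2 scale, and *cblc-1*, the counterpart of the human processing protein MMACHC, by 0.51. *mmad-1*, the counterpart of human MMADHC, which directs the cofactor to its target enzymes, rose by 0.29 on that scale (127, 119 and 128 ppm in WT; 151, 147 and 162 ppm in ATF-4OE; limma adjusted p = 0.0321). *mmab-1*, the counterpart of the human adenosyltransferase that makes the mutase cofactor, measured 37.98 to 42.6 ppm in WT and 36.0 to 40.6 ppm in ATF-4OE, with overlapping groups.

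Among 5 regulators, 2 nuclear receptor genes fell and 3 genes did not pass, where 14.4% of all genes tested were lower. *nhr-10* and *nhr-68* encode the receptors known to act in sequence to activate the shunt when propionate accumulates. *nhr-68* measured 115, 120 and 127 ppm in WT, 113, 119 and 95.7 ppm in the mutant and 59.0, 72.9 and 65.6 ppm in ATF-4OE, so that the ATF-4OE libraries stood apart (log2 fold change −0.87, SE 0.12, limma adjusted p = 0.00158). *nhr-10* measured 19.3 to 20.8 ppm in WT and 17.04 to 20.6 ppm in ATF-4OE, with overlapping groups (log2 fold change −0.07, limma adjusted p = 0.641). *nhr-114*, which activates genes of the methionine cycle when its flux is low, fell from 474, 425 and 454 ppm to 150, 173 and 184 ppm (log2 fold change −1.41, SE 0.10, limma adjusted p = 8.26e-05). *sbp-1* and *mdt-15*, regulators of lipid genes, did not pass, with log2 fold changes of −0.23 and −0.19.

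Downstream of the B12-dependent route, all 4 genes for subunits of succinyl-CoA ligase, which acts on its end product, fell by small amounts. Lower calls covered 14.4% of all genes tested. The log2 fold changes were −0.60 (*sucl-2*), −0.47 (*sucg-1*), −0.29 (*suca-1*) and −0.24 (*sucl-1*), with adjusted p of 0.0038 to 0.0691 (limma). *sucl-2* measured 138, 126 and 151 ppm in WT and 98.0, 87.7 and 88.0 ppm in ATF-4OE, without overlap.

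Of 13 genes for the breakdown of branched-chain amino acids, among which valine and isoleucine but not leucine yield propionyl-CoA, 7 were lower in ATF-4OE and 0 were higher, with a median log2 fold change of −0.25. Over all genes tested, 14.4% were lower and 22.1% higher. *ivd-1*, the isovaleryl-CoA dehydrogenase of leucine breakdown, fell by 0.90 on the log2 scale, and *mccc-1*, a carboxylase subunit of the same branch, by 0.65. All 4 genes of the branched-chain keto acid dehydrogenase complex fell, *bckd-1B* by 0.63, *dbt-1* by 0.49, *bckd-1A* by 0.33 and *dld-1*, which also serves other dehydrogenase complexes, by 0.25. *ard-1*, a hydroxyacyl-CoA dehydrogenase gene, fell by 0.61. Each of these changes was smaller in size than those of *acdh-1*, *ech-6*, *hach-1* and *hphd-1*, as the plot of neighbouring genes shows, and whether they differ was not tested.

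**Figure D4:**
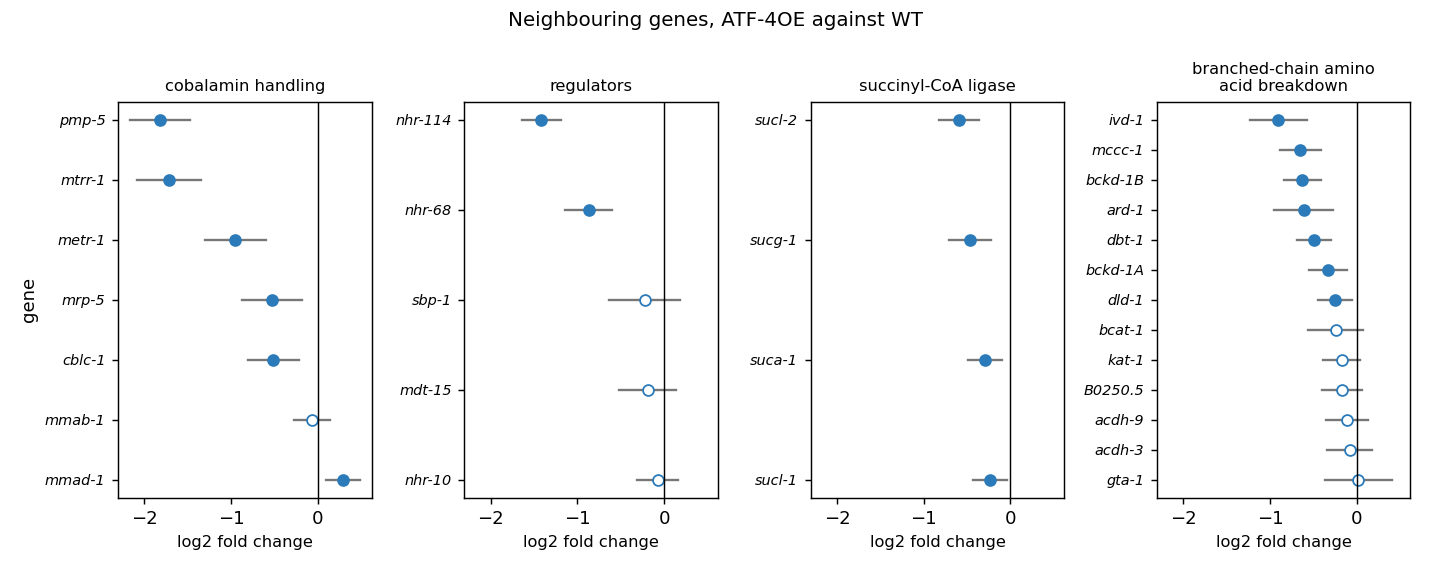
Log2 fold change (points) and 95% interval (lines) between ATF-4OE and WT, n = 3 libraries each, for genes of cobalamin handling, regulators, succinyl-CoA ligase and the breakdown of branched-chain amino acids; filled points passed the test at an adjusted p under 0.1. *pmp-5*, *mtrr-1* and *nhr-114* lie beyond −1, and *mmad-1* is the filled point on the right.

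Other acyl-CoA dehydrogenase genes showed mixed changes, and those that passed changed less than *acdh-1*. Of 10 tested, 6 did not pass, *acdh-2* rose and *acdh-11*, *acdh-12* and *acdh-13* fell, by 0.55, 0.38 and 0.34 on the log2 scale. Among all genes tested, 14.4% fell and 22.1% rose by this test. *acdh-2*, a close relative of *acdh-1*, measured 34.7, 31.9 and 17.3 ppm in WT, 39.0, 32.1 and 43.4 ppm in the mutant and 60.5, 55.6 and 40.9 ppm in ATF-4OE. Its log2 fold change from WT to ATF-4OE was 0.92 (SE 0.26, limma adjusted p = 0.0266), in the direction opposite to *acdh-1*. Its level stayed far below that of *acdh-1* in every library. How reads that fit both genes were counted is not given in the sources used here.

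In the mutant none of the genes of cobalamin handling, the regulators, succinyl-CoA ligase, branched-chain amino acid breakdown or the dehydrogenase family passed by limma. At an unadjusted p under 0.05 there were 2 among the 7 cobalamin genes, 1 among the 5 regulators and 0 in the other lists, where 10.4% of all genes tested were under that value. These were *mtrr-1* (log2 fold change −0.45), *cblc-1* (0.37) and *nhr-114* (−0.27), each with an adjusted p of 0.466. They are named after their values were seen.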

How the data were processed

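The authors aligned single-end poly(A) reads to WBcel235 with STAR 2.4.0j, made gene counts with featureCounts (Rsubread 1.16.1), removed transcripts below 1 CPM and converted the rest to RPKM; strand handling is not given in the sources used here. They deposited RPKM values (46748 genes), centred and scaled scores (14218 genes) and scores of the 39 most regulated genes. Score values were shifted to a lowest value of 0 and scaled to a sum of 1000000 per library (ppm). Low RPKM values came out as whole reads, within 0.02 read, in 40.3 to 49.7% of cases, and counts were therefore not recovered.

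Genes reaching 5 ppm in any 1 library were fitted as log2(level + 1) with limma 3.58.1 (R 4.3.3), trend, all 9 libraries, two-sided, adjusted by Benjamini-Hochberg; the fit was tested on simulated data. Fold changes on this scale understate those of low genes. An exact permutation test of 3 against 3 cannot go below p = 0.1. Tables used Python 3.11.15, pandas 2.3.3 and numpy 2.4.6, figures matplotlib 3.10.9. Gene names were those of Ensembl release 115 (WBcel235), where 14092 of the 14218 identifiers were found.

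The sources state that the strains of a replicate were grown together, so replicate numbers pair the libraries, although deviations of same-numbered libraries correlated at only −0.68 to 0.31 (−0.48 to 0.76 with mutant replicates 2 and 3 exchanged). The study's methods use no block, and a block was an alternative. Alternatives were the scaling, the pseudocount, the filter, the samples fitted, the trend, the score scale, the RPKM values under the names of their own sheet, and leaving out each library. Members and lists were chosen with earlier results of these data known. Named were all 10 members, every gene of a pathway list (not of the tissue markers) that passed in ATF-4OE against WT, and the 5 genes most like *acdh-1* and *mmcm-1*; genes named beyond these were chosen after their values were seen. Markers of 6 tissues were measured. Deposited sheets of annotation terms and summary text were not used. No nucleotide or protein sequence was used.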

Additional observations from a re-analysis of the deposited data

How the results depend on the processing

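The 5 shunt genes passed the test in ATF-4OE against WT and against the mutant under every alternative run except the names of the RPKM sheet, and 0 of 10 members passed in the mutant under any alternative. Under the names of the RPKM sheet, 0 shunt genes and 0 genes of the B12-dependent route passed in any comparison, as did 0 of all 10378 genes (144 genes at an unadjusted p under 0.05 in ATF-4OE against WT). That alternative was fitted to the RPKM values themselves, filtered in RPKM and not scaled to a common sum, so that more than the names differed. The log2 fold changes there turned sign in ATF-4OE against WT for *acdh-1* (0.18), *ech-6* (0.065), *hphd-1* (0.11), *alh-8* (0.021), *pcca-1* (−0.018) and *mmaa-1* (0.34). In the mutant against WT they turned for *acdh-1* (0.18), *hphd-1* (0.050), *alh-8* (−0.15), *pccb-1* (−0.064), *mce-1* (0.13) and *mmaa-1* (0.36). In ATF-4OE against the mutant they turned for *acdh-1* (0.0024), *ech-6* (0.071), *hphd-1* (0.064), *alh-8* (0.17), *pcca-1* (−0.024), *pccb-1* (0.090), *mce-1* (−0.086) and *mmcm-1* (0.039). Those groups mix the genotypes of the other sheet. The library that the RPKM sheet names WT replicate 2 had *atf-4* at 3.81 ppm, and the one it names WT replicate 3 at 5289 ppm. These are mutant replicate 1 and ATF-4OE replicate 1 under the names followed here. With the replicate block, 5 shunt genes and 3 genes of the B12-dependent route passed in ATF-4OE against WT, and 5 and 2 against the mutant, as without it; the block changed no member's call, also with mutant replicates 2 and 3 exchanged. On the centred and scaled values, 1 gene of the B12-dependent route passed in ATF-4OE against the mutant, and signs turned for *hach-1* (−0.016), *alh-8* (−0.090) and *mce-1* (0.0036) in the mutant against WT and *pccb-1* (0.015) in ATF-4OE against the mutant. With the median of ratios, *mmcm-1* turned to −0.0080 in ATF-4OE against WT. Leaving out each library gave 2 to 3 genes of the B12-dependent route in ATF-4OE against WT and 1 to 3 against the mutant. The log2 fold changes then ranged from −0.013 to 0.17 for *pccb-1* and −0.091 to 0.17 for *mmcm-1* in ATF-4OE against WT, from −0.11 to 0.057 for *mce-1* and −0.085 to 0.061 for *mmaa-1* in the mutant against WT, and from −0.13 to 0.055 for *pccb-1* in ATF-4OE against the mutant. None of these genes had passed in that comparison. The cause of these shifts was not tested. Over all genes, ATF-4OE against WT gave 4122 calls, 2122 on the centred and scaled values and 2584 without ATF-4OE replicate 1; ATF-4OE against the mutant gave 3790, of them 59.0% higher, and 1284 on the centred and scaled values, 48.1% higher, 2345 without ATF-4OE replicate 1 and 2511 without mutant replicate 2. The mutant against WT gave 6 calls, 128 without mutant replicate 1, 58 without WT replicate 1, and 3 in a fit of only the 6 libraries compared, without mutant replicate 2, and without WT replicate 2. With 3 libraries a group, p-values measure the spread between cultures grown from 1 line each.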
